A study of Mus musculus with 2 samples.

Results

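Open chromatin was examined at 7 mouse genes that encode the receptor chains for the colony-stimulating factors and the closely related growth factors of blood cells: Csf3r, Csf2ra, Csf2rb, Csf2rb2, Csf1r, Flt3 and Kit. They were taken by name from the 21938 protein-coding genes of GENCODE M21, not by any value measured here. Earlier results of these data were known when the genes were chosen. For each gene, regions were collected at its promoter (any overlap with the 1 kb on either side of an annotated start site), inside the gene, and distally (summit within 50 kb of its 5′-most start site and over 1 kb from every start site). The data were ATAC-seq peak lists, in which peaks mark DNA that a transposase could reach, from 1 group of 2 libraries. The cells were neutrophils of C57BL/6J mice, 5 to 6 weeks old, taken from the circulation, with 50000 cells in each library. No genotype, treatment or purification step was named, so no condition was compared. The labels give the replicates separate biosample records under a shared donor record, and the spread between them may therefore be technical.

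These receptors fall into 2 structural families. Csf3r binds granulocyte colony-stimulating factor and drives neutrophil production, while Csf2ra binds GM-CSF and signals through a shared beta chain, Csf2rb. The mouse also has Csf2rb2, a close copy of Csf2rb that pairs with the IL-3 receptor alpha chain. All of these are cytokine receptors that signal through JAK kinases and STAT factors. Csf1r, Flt3 and Kit are receptor tyrosine kinases: Csf1r is the M-CSF receptor of monocytes and macrophages, Flt3 serves progenitors and dendritic cells, and Kit, the stem cell factor receptor, serves stem cells and mast cells.

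The strict list of each library, thresholded by the irreproducible discovery rate (IDR, the estimated rate at which a peak fails to repeat), merged into 27709 regions in replicate 1 and 14548 in replicate 2. A looser list, built from pseudoreplicates of each library, merged into 47640 and 29848 regions, and the authors' conservative list from both libraries into 24882. The lists give each peak a signal value, a score whose definition is in neither the labels nor the file headers, and no read depth. Of 20 neutrophil marker genes, 13 had a promoter region in replicate 1, 5 in replicate 2 and 5 in both. The highest by mean were Clec4e (19.1 and 16.2), Wfdc21 (13.5 and 13.9) and Il1r2 (12.9 and 13.3). Ly6g, Camp, Ltf and Ngp had none even in the looser lists. Of 8 B cell markers, 8 had a promoter region in replicate 1 and 6 in both, with signal values of 23.7 and 17.0 at Cr2, the highest of them. Of 15 monocyte and macrophage markers 3 had a promoter region in both, and of 8 T cell markers 1 (Cd3d). Over all protein-coding genes the share in both was 39.8%, and 18.2% over genes without a CpG-rich promoter. The part of other cells in the results at the receptor genes was not tested. In a bulk library, weak opening in all cells and strong opening in a few cells cannot be told apart.

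Promoters of the receptor genes were open at modest signal or not listed at all. Flt3 had the highest values, 11.0 in replicate 1 and 9.69 in replicate 2 (mean 10.4 ± 0.940, SD, n = 2). Csf2ra had 7.04 and 8.58 (7.81 ± 1.09, SD, n = 2). Csf3r, the receptor that neutrophils are best known for, had 6.61 in the strict list of replicate 1 and reached only the looser list of replicate 2, at 6.24 (6.42 ± 0.266, SD, n = 2). All of these lay under the median of genes with an open promoter in the strict list, which was 12.4 in replicate 1 and 13.9 in replicate 2. The looser list of replicate 2, which gave the second Csf3r value, had a median of 12.55. In replicate 1, 4.92% of open genes had a lower value than Csf3r, 7.27% a lower value than Csf2ra and 37.2% a lower value than Flt3. In replicate 2 the share was 6.86% for Csf2ra and 13.6% for Flt3.

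The other members appeared at their promoters only below the strict threshold of a replicate. Csf2rb had 5.56 and 5.37 in the looser lists (5.47 ± 0.131, SD, n = 2) and 6.36 in the conservative list from both libraries. Csf2rb2 had 3.94 and 5.10 (4.52 ± 0.823, SD, n = 2). Csf1r had 3.83 and 7.21, the widest gap between replicates among the members (5.52 ± 2.39, SD, n = 2). Kit had no promoter region in replicate 1 and 3.77 in the looser list of replicate 2. Within each replicate the order was Flt3, Csf2ra, Csf3r, Csf2rb, Csf2rb2, with the looser list used where the strict one held no region. The ranges of these 5 genes over the replicates did not overlap, but the score was used to rank peaks within a list only. The values of Csf1r span those of Csf3r, Csf2rb and Csf2rb2, and its 7.21 is above the 7.04 of Csf2ra in replicate 1, so it has no place among them.

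**Figure D1:**
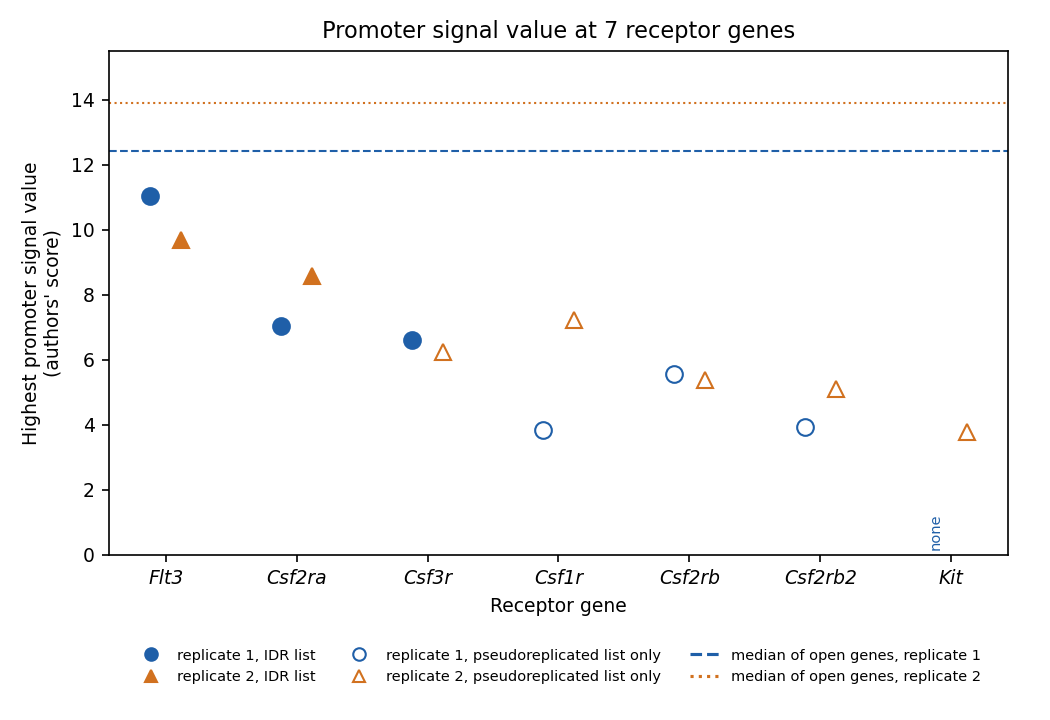
Highest promoter signal value (vertical axis, the authors' score) of each of the 7 receptor genes, with circles for replicate 1 and triangles for replicate 2; filled symbols are in the strict IDR list, hollow ones only in the looser pseudoreplicated list, and the lines give the median of all genes with an open promoter in the strict list. Flt3 at 11.0 and 9.69 is highest, no symbol reaches the line of its replicate (12.4 and 13.9), and Kit has no symbol for replicate 1.

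Counted over genes, 3 of the 7 members (42.9%) had a promoter region in the strict list of replicate 1, against 47.1% of all protein-coding genes. In replicate 2 it was 2 members (28.6%), against 40.3% of all genes, and the same 2, Csf2ra and Flt3, made up the members open in both, against 39.8% of all genes. The looser lists of both replicates held 6 members (85.7%), all but Kit, against 49.8% of all genes. The conservative list held 4 members (57.1%), namely Csf3r, Csf2ra, Csf2rb and Flt3, against 46.8%. The strict counts lie near or below the background and are no result about the family as a whole.

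CpG content divides the members. Flt3 and Kit have CpG-rich promoters, a class that is open in many cell types, and the other 5 do not. Of the CpG-rich pair, 1 (Flt3) was open in both replicates, against 66.8% of all genes of that class. Of the 5 others, 1 (Csf2ra) was open in both, against 18.2% of all genes without a CpG-rich promoter. CpG content was scored around the 5′-most start site, whereas the Csf2ra region in both replicates had its summit at +1.1 kb. Kit is thus a CpG-rich promoter that was not listed in replicate 1 and only loosely in replicate 2, where the authors' −log10 p was 4.63.

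Away from the promoters the members differed more. Distal regions in the strict lists numbered 4 and 1 for Csf3r (replicates 1 and 2), 2 and 2 for Csf2ra, 2 and 1 for Csf2rb, 5 and 3 for Csf2rb2, and 1 and 0 for Flt3. Csf1r and Kit had 0 in either replicate, and for Kit this held also in the looser lists. The mean over members was 2.0 and 1.0, against 1.17 and 0.433 over all genes. Having at least 1 distal region in both replicates applied to 4 members (57.1%), the 4 cytokine receptor genes, against 27.7% of all genes. Regions inside the gene in both replicates were found at 2 members (28.6%), Csf2rb and Flt3, against 8.57%. No strict region of any kind in either replicate was found at 2 members (28.6%), Csf1r and Kit, against 33.3%. A region inside a gene and within 50 kb of its start counts in both classes, and neighbouring members share regions.

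**Figure D2:**
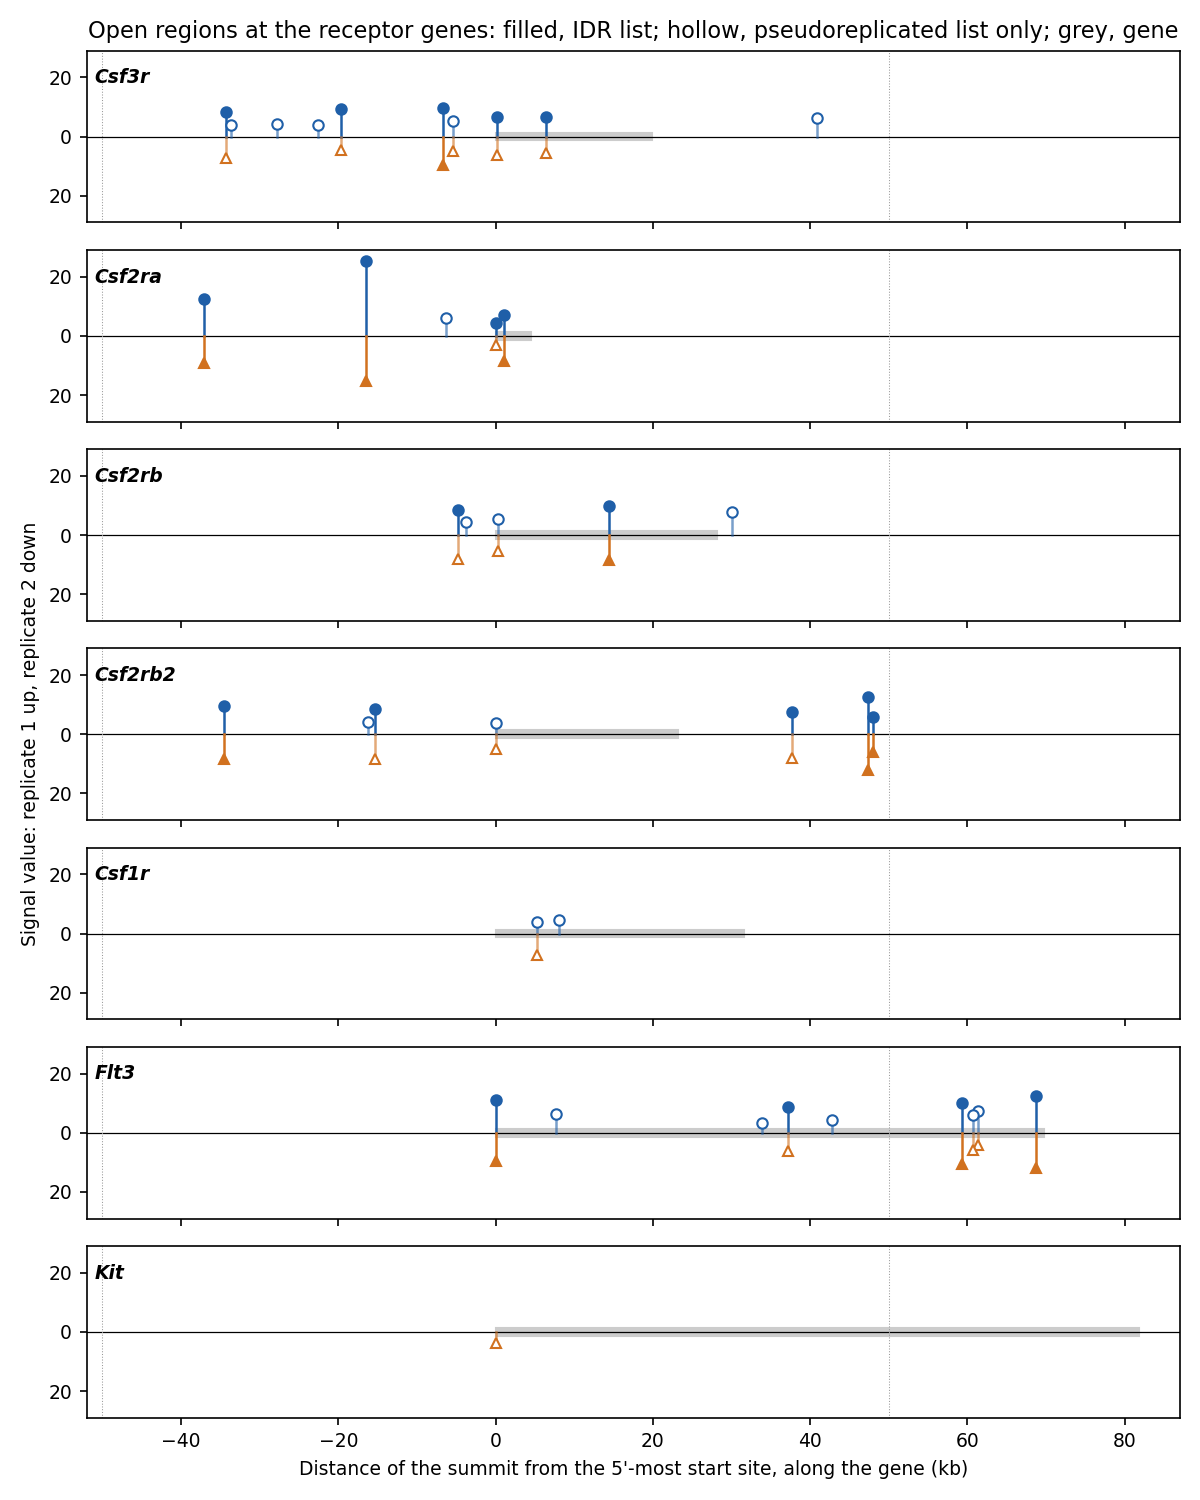
Open regions at each receptor gene by the distance of the summit from the 5′-most start site along the gene (kb, horizontal axis), with the signal value of replicate 1 drawn upward and that of replicate 2 downward; filled symbols are in the strict list, hollow ones only in the looser list, the grey bar is the gene and the dotted lines mark 50 kb. The tallest stem, 25.3 in replicate 1, lies at −16.5 kb of Csf2ra, Flt3 carries its regions inside the gene, and Csf1r and Kit have hollow symbols only.

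At Csf3r, the region present in the strict lists of both replicates was not the promoter but a site at −6.7 kb (chr4:126017663-126018225, GRCm38, intergenic). Its signal value was 9.65 in replicate 1 and 9.66 in replicate 2, above the promoter's in each, and 10.4 in the conservative list. Among strict regions over 1 kb from every start site, 53.5% were lower in replicate 1 and 38.2% in replicate 2, so this was an average distal region. The bases reaching 50 bp to either side of its summit (chr4:126017818-126017918, plus strand) are shown because they hold the C/EBP string TTGCNNAA at 2 places, set in capitals. C/EBP factors direct granulocyte genes. The string was in 6.39% of distal regions of replicate 1 and 6.88% of those of replicate 2. The region at +6.4 kb in intron 4 (chr4:126030746-126031070), with 6.75 in the strict list of replicate 1 and 5.54 in the looser list of replicate 2, is shown with the string GAGGAAGT in capitals. That string fits PU.1, the ETS factor of myeloid and B cells, and was in 8.29% of distal regions of replicate 1.
Csf3r −6.7 kb: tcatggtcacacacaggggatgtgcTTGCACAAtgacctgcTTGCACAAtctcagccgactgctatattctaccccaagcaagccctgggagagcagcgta
Csf3r +6.4 kb: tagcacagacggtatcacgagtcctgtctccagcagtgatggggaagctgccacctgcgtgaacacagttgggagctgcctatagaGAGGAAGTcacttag

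The other Csf3r sites were weaker or unequal between replicates. The region at −19.6 kb had 9.45 in replicate 1 and 4.65 in the looser list of replicate 2, and it was missing from the conservative list. The region at −34.2 kb had 8.475 and 7.13, the second from the looser list. A region at −5.4 kb had 5.15 and 4.89 in the looser lists and also carried the C/EBP string. The Csf3r promoter summit lay in an untranslated exon at position 126024691 of chromosome 4, 35 bp from an annotated start site. A 30-base stretch there is shown because it holds the letters GAAANNGAA, which fit interferon regulatory factors and were in 2.35% of promoter regions of replicate 1. Within 50 kb of the Csf3r start lie the starts of Mrps15, a mitochondrial ribosomal protein gene with promoter values of 8.80 and 7.59, and of Oscp1, with 14.0 and 11.97. Both neighbours thus had higher promoter values than Csf3r.
Csf3r promoter (chr4:126024688-126024717, plus strand): cgacggggctaGAAAGAGAAgtttcgggaa

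Csf2ra combined a weak promoter with the strongest distal region of the family. The gene is short, 4473 bp, and its 5′-most start site lies 203.1 kb from the end of the assembled chromosome 19. Its distal region at −16.5 kb (chr19:61244579-61245178, intergenic, Csf2ra being the nearest protein-coding start) had 25.3 in replicate 1 and 15.4 in replicate 2. Of distal regions, 99.9% were lower in replicate 1 and 91.4% in replicate 2. The bases up to 50 bp from its summit (chr19:61244841-61244941, minus strand) include the PU.1 string, in capitals. A second distal region at −37.1 kb had 12.5 and 9.34, but the nearest protein-coding start there was that of Gm21060, 31537 bp away.
Csf2ra −16.5 kb: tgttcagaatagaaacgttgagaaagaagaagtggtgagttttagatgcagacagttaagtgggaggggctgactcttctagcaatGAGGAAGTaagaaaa

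The main promoter region of Csf2ra did not lie at the 5′-most start site. Its summit was at +1.1 kb, in coding exon 2 and 63 bp upstream of another annotated start site, within chr19:61225930-61227564. A separate region at the 5′-most site itself had 4.199 in replicate 1 and 3.25 in the looser list of replicate 2. The summit window at +1.1 kb (chr19:61227249-61227349, minus strand) is shown with the STAT string TTCNNNGAA and the KLF/SP string GGGCGG in capitals. STAT factors act downstream of these receptors, and their string was in 1.985% of promoter regions of replicate 1 and 2.01% of those of replicate 2. The KLF/SP string was in 35.3% and 44.5%, being common in promoters.
Csf2ra +1.1 kb: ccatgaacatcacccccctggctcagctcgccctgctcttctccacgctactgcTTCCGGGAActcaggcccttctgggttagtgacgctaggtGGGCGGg

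The promoter region of Csf2ra also had a −log10 p far above that of regions with a like signal value. The authors' −log10 p was 76.3 in replicate 1 and 53.7 in replicate 2. Among the 2033 regions of replicate 1 whose signal value was within 5%, the median was 23.5 and 99.85% were lower. Among the 1246 such regions of replicate 2, the median was 19.4 and 99.52% were lower. The region at −37.1 kb stood apart in the same way (115.4 and 41.9, with 97.6% and 96.4% lower), whereas the region at −16.5 kb did not (111.3 and 37.6, with 18.4% and 8.59% lower). The trait was not confined to Csf2ra. The region at +47.3 kb of Csf2rb2 had 102.1 and 48.3, with 94.7% and 87.6% lower. No word of 31 bases in the promoter regions of Csf2ra occurred elsewhere in the assembled chromosomes, against 10.1% of the words at −37.1 kb and 2.28% of those at −16.5 kb.

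**Figure D3:**
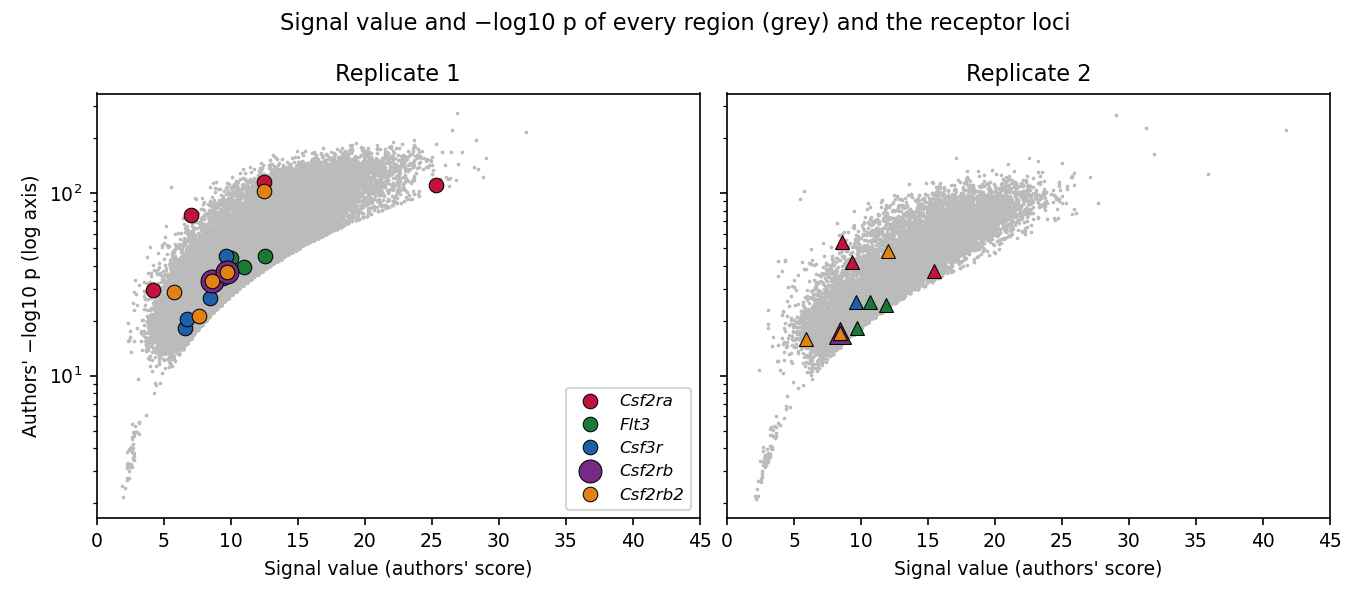
Signal value (horizontal axis, the authors' score) and the authors' −log10 p (vertical axis, log scale) of every region of the strict list in grey, with regions at the receptor genes in colour, replicate 1 on the left and replicate 2 on the right; Csf2rb regions are drawn larger because Csf2rb2 shares them. The Csf2ra promoter region, at 7.04 and 76.3 in replicate 1 and 8.58 and 53.7 in replicate 2, sits at the upper edge of the cloud.

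Further signal near Csf2ra was in the ranked lists alone, the authors' lists of all peaks before thresholding. A peak at +28.7 kb had 18.4 in replicate 1 and 21.1 in replicate 2, and the peak at −38.2 kb had 11.7 and 11.97. The −log10 IDR was 4.01 and 4.16 at the first and 3.71 and 3.43 at the second, past the threshold of 1.301, yet neither the strict nor the looser list of either replicate held them. Over the whole genome 134 peaks of replicate 1 (0.388%) and 103 of replicate 2 (0.558%) had passed the threshold without being in the strict list. The step that left them out is not stated in the labels or file headers. Of the 31-base words of these peaks, 17.8% at +28.7 kb and 2.28% at −38.2 kb occurred elsewhere in the genome. In replicate 1 the peak at +28.7 kb lay 15823 bp from the nearest annotated start site, which is nearer than the 5′-most start of Csf2ra. The start of Gm6020 lies 44.5 kb from that of Csf2ra, and Gm6020 had no promoter region in the strict lists.

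Csf2rb and Csf2rb2 lie head to head on chromosome 15, with their 5′-most start sites 20.03 kb apart. The 2001 bases around the start sites aligned over 1472 columns, of which 1313 (89.2%) were identical. Their promoter summits fall in this shared sequence. A 30-base stretch from each is shown, in the direction of its gene, because the PU.1 string (read on the other strand as ACTTCCTC) stands at the same place in both. The stretches were identical at 29 of 30 bases, counted from 1 at the 5′ end, and differed by C4T with the Csf2rb base given first. With that base Csf2rb matched the C/EBP string TTGCNNAA, and Csf2rb2 did not. Farther along, the summit window of Csf2rb also held the GATA string AGATAA, and that of Csf2rb2 did not. The GATA string was in 1.30% of promoter regions of replicate 1. The PU.1 string was in 3.35% of promoter regions of replicate 1, and the C/EBP string in 3.39%.
Csf2rb promoter (chr15:78325963-78325992, plus strand): TTGCGAAAgggcactggcaACTTCCTCaat
Csf2rb2 promoter (chr15:78305684-78305713, minus strand): ttgtgaaagggcactggcaACTTCCTCaat

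Part of the sequence at these start sites is not unique. Of all 31-base words in the 2 kb around the start site, 34.9% of those of Csf2rb and 12.6% of those of Csf2rb2 occurred elsewhere in the genome, most of them on the same chromosome (33.0% and 11.3%). Of the words in the listed promoter regions themselves, 17.3% and 21.7% were repeated. The share was 10.2% in the same window of Csf1r, 2.33% in that of Csf3r and 0.558% in that of Csf2ra, and the windows of Flt3 and Kit held no repeated word. Across 555 regions of replicate 1, every 50th in genome order, 83.1% held no repeated word and the mean share was 2.47%. How reads with several placements were handled is not given in the sources used here, and the effect on the low promoter values of this pair was not tested.

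The region of Csf2rb in the strict lists of both replicates was at +14.5 kb in intron 4 (chr15:78339944-78340348), with 9.69 and 8.40, where 26.9% of the words were repeated. A region at −4.7 kb, between both genes (chr15:78320872-78321150), had no repeated word and 8.59 in the strict list of replicate 1, 8.20 in the looser list of replicate 2 and 9.59 in the conservative list. Neither summit window held any of the 9 strings searched. After their sequences had been seen, the letters CTNNTGGNC were added, which fit the inner part of the sequence bound by CTCF, an architectural factor found at many distal open sites. Each window holds them, as the capitals show. Since the string was chosen from such windows, its presence is a description. It was in 16.4% of distal regions of replicate 1 and 14.5% of those of replicate 2.
Csf2rb −4.7 kb (chr15:78320958-78321058, plus strand): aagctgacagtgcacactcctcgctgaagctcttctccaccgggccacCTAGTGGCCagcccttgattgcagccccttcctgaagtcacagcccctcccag
Csf2rb +14.5 kb (chr15:78340168-78340268, plus strand): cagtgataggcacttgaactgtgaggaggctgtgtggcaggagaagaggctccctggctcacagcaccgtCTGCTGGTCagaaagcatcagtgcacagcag

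For Csf2rb2, the distal count of 5 and 3 came wholly from regions nearer to other genes. The regions just described are counted for it too, at −15.3 and −34.5 kb. The strongest, at +47.3 kb with 12.5 and 12.04, and a weaker one at +48.0 kb with 5.79 and 5.92, lie inside Ncf4, which encodes a subunit of the phagocyte NADPH oxidase. The region at +37.7 kb had 7.65 in replicate 1 and 8.115 in the looser list of replicate 2, and Ncf4 was again the nearest start. Counting regions at the nearest start site alone left Csf2rb2 with 0 and Csf2rb with its 2 and 1.

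Flt3 carried its open regions inside the gene. The promoter summit lay in an untranslated exon of the gene, 104 bp from the start site, and its window held none of the strings. Inside the gene the strict lists held 3 regions in replicate 1 and 2 in replicate 2, and at least as many were found at 3.78% and 2.26% of all genes. The looser lists held 8 and 5, and at least as many were found at 1.65% and 1.49% of all genes. The gene is 69749 bp long, and long genes can hold more regions. The strongest was at +68.7 kb in intron 23 (chr5:147331616-147331888), with 12.6 and 11.9, above the promoter's values of 11.0 and 9.69. Another at +59.3 kb in intron 20 (chr5:147340916-147341338) had 9.98 and 10.7. At these regions the nearest protein-coding start was that of Urad, 9322 and 18747 bp away, not that of Flt3. A weaker one, at +37.2 kb (chr5:147363069-147363529), in intron 9 of the longest transcript and in a noncoding exon of another, had 8.74 in replicate 1 and 6.26 in the looser list of replicate 2.

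The 3 summit windows of Flt3 are printed to show how they differ, in the direction of the gene (minus strand). The window at +68.7 kb (chr5:147331712-147331812), whose summit the assembly marks as repeat sequence, holds the CTCF letters. The window at +59.3 kb (chr5:147341137-147341237) holds none of the strings. The window at +37.2 kb (chr5:147363197-147363297) holds the C/EBP and PU.1 strings a few bases apart.
Flt3 +68.7 kb: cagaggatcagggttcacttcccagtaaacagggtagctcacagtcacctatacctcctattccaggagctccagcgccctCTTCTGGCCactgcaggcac
Flt3 +59.3 kb: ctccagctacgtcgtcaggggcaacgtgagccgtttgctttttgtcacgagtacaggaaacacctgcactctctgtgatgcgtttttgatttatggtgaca
Flt3 +37.2 kb: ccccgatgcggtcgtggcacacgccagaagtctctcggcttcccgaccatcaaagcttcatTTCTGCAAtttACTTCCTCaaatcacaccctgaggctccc

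Over all members, the strict list of replicate 1 held 14 distinct regions away from start sites. Of these, 3 held the PU.1 string (21.4%, against 8.29% of all distal regions), 2 the C/EBP string (14.3%, against 6.39%) and 4 the added CTCF letters (28.6%, against 16.4%). In replicate 2 it was 1 of 8 for PU.1 (12.5%, against 9.36%), 1 of 8 for C/EBP (12.5%, against 6.88%) and 2 of 8 for the CTCF letters (25.0%, against 14.5%). Of the 14, 8 (57.1%) held none of the 9 strings, and of the 8 in replicate 2, 6 (75.0%) held none. At least 1 of the 9 strings was in 35.5% of all distal regions of replicate 1 and 39.4% of those of replicate 2. The CTCF letters were added after windows counted here had been seen, so their excess over all distal regions draws on that choice. With so few regions, all the shares given here only describe the members.

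Csf1r and Kit, the M-CSF and stem cell factor receptors, were the members with no region in the strict lists. Csf1r had its summit in the looser lists at +5.2 kb, in an untranslated exon 7 bp from an alternative start site, and not at its 5′-most start. A further looser region at +8.0 kb in an intron, with 4.53, was in replicate 1 only. The best known enhancer of mouse Csf1r, called FIRE, lies in an early intron of the gene, and whether this region covers it was not tested. Kit had its only region at +0.1 kb in the looser list of replicate 2 and no distal region even within 100 kb in the strict lists. Csf1r likewise had none within 100 kb.

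The other genes of the pathway are set beside the members' 2 of 7 (28.6%) and the 39.8% of all genes, with no test of a difference. Of 25 genes that act downstream of the receptors, 19 (76.0%) had a promoter region in both replicates, led by the kinase genes Jak1 (19.1 and 19.97) and Tyk2 (17.9 and 17.9) and the adaptor gene Grb2 (19.04 and 16.97). Jak3 had none in the strict lists, and 17 of the 25 have CpG-rich promoters. Of 8 ligand genes, 2 (25.0%) were open in both, Flt3l (12.2 and 14.3) and Csf1 (8.81 and 9.83), while Csf2, Csf3 and Il3 had no promoter region in the strict lists. Of 12 transcription factor genes known to act on these receptors, 5 (41.7%) were open in both, with Cebpa at 11.96 and 11.4, Runx1 at 10.2 and 12.04 and Spi1, which encodes PU.1, at 10.2 and 10.9. Cebpb, Gata1 and Gata2 had none in the strict lists, and Cebpb had 3.42 and 5.19 in the looser ones.

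Among related receptors, 6 of 26 other class I cytokine receptor genes (23.1%) were open in both replicates, against the members' 2 of 7 and 39.8% of all genes. The highest were the shared receptor chains Il2rg (18.7 and 10.5) and Il6st (12.004 and 14.8), and Il4ra (12.04 and 13.3). Of 28 other receptor tyrosine kinase genes 1 (3.57%) was open in both, the insulin receptor gene Insr (10.7 and 14.6), although 16 of the 28 have CpG-rich promoters. Flt3 was thus open in a class of genes with few open promoters in these libraries.

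**Figure D4:**
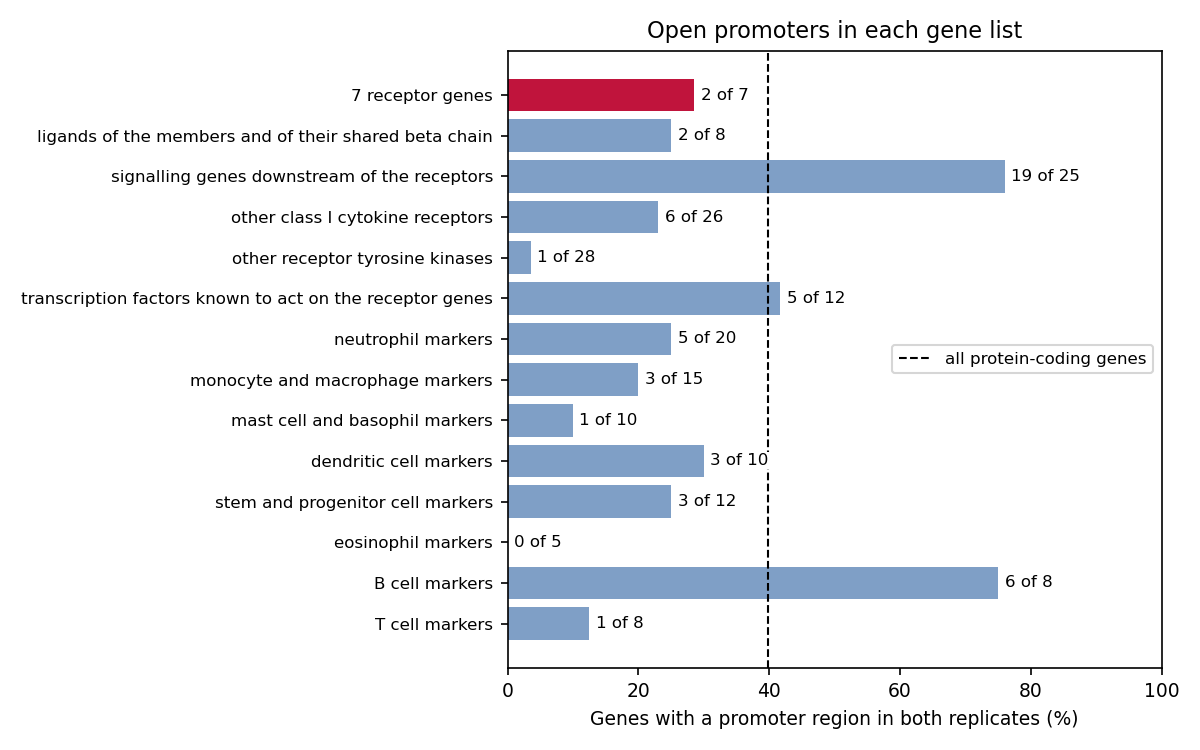
Share of genes with a promoter region in the strict lists of both replicates (horizontal axis, percent) for the 7 receptor genes in red and for each pathway and marker list in blue, with the counts beside the bars; the dashed line is the 39.8% of all protein-coding genes. The receptor genes (2 of 7) lie left of the line and their downstream signalling genes (19 of 25) right of it.

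The genes most like the open members were found among the 8725 genes open in both replicates, by the distance over 4 values (log2 promoter signal value and log2 of the distal count plus 1, in each replicate). For Csf2ra they were Nfkbid (6.87 and 8.16), Mef2d (7.36 and 8.92) and Sos1 (7.22 and 8.01), each with 2 distal regions in either replicate. For Flt3 they were 4930544D05Rik and Chrne, which share a promoter region (11.2 and 9.54), and Slc35a2 (11.3 and 9.75).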

How the data were processed

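ATAC-seq peak lists on mm10 (GRCm38) came from both libraries, replicates 1 and 2. The sources used here do not name the aligner, the peak caller or the handling of reads with several placements, and the depth is unknown. The authors deposited a signal value for each peak, a score that the file headers leave undefined. The −log10 p of each peak and the −log10 IDR of each ranked peak are the authors' deposited values, as is the offset of the summit. Per the file headers there are, for each replicate, a strict list thresholded by IDR, a looser pseudoreplicated list and a ranked list, while the conservative IDR list draws on both replicates. Other pooled lists were not used here.

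Overlapping peaks were merged into regions, each keeping the highest signal value and its summit (Python 3.11.15, numpy 2.4.6, pysam 0.24.0). Genes came from GENCODE M21 and sequence from GRCm38.p6. CpG-rich promoters were those with a CpG observed-to-expected value of 0.6 or more and a GC content of 50% or more within 500 bp of the 5′-most start site. Windows of 50 bp to either side of a summit were searched, on both strands, for 9 strings: the PU.1 string GAGGAAGT, the string CCGGAAGT of other ETS factors (both end in the same letters), the C/EBP string TTGCNNAA, the RUNX string TGTGGTT, the AP-1 string TGANTCA, the IRF string GAAANNGAA, the GATA string AGATAA, the STAT string TTCNNNGAA and the KLF/SP string GGGCGG. A match is a description, not a bound site. Positions count from 1, and the scripts were tested on simulated data.

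With 1 group of 2 replicates no test between groups could be made, and values are descriptions with the SD over both replicates. The members, gene lists and strings were chosen with earlier results of these data known. The genes named from a list were drawn from the 3 with the highest mean promoter signal value among those open in both replicates. They also came from up to 3, in alphabetical order, with none in either. Not all of these are printed for every list. Genes with a start site within 50 kb of that of a member and the 3 most alike genes were also named. Ly6g, Ltf, Ngp, Ncf4, Gm21060 and Urad were named after their values were seen. Alternatives were the other lists, peaks at or above the median signal value, other promoter widths, overlaps and distal windows, no merging, and each replicate alone.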

Additional observations from a re-analysis of the deposited data

How the results depend on the processing

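The counts over members turned on the list used. The number of members with a promoter region in both replicates was 2 in the strict lists, 6 in the looser lists, 4 in the conservative list and 0 among peaks at or above the median signal value of their list. It was 2 in replicate 2 alone and 3 in replicate 1 alone, and 2 under the other promoter widths, start sites and overlaps. Regions inside the members averaged 4 over replicates, 9 in the looser lists and 1 among the stronger peaks, and 3 to 5 with a replicate left out. Distal regions, each counted once, averaged 9, against 19 in the looser lists, 2.5 among the stronger peaks, 18 within 100 kb and 5.5 when only the nearest start site counted, and 6 to 12 with a replicate left out. Members with any region in both replicates numbered 5, and 3 among the stronger peaks. The cause was not tested. The other 19 such values stayed within 1.5 times of their main value; for single genes, 45 values stayed within 1.5 times for a count or within 1 SD for a signal value, and 20 did not. The depth is unknown, so a missing peak is not shown to be closed DNA. No paired analysis was possible because there is 1 group.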

Other observations

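Over the 28607 regions of the looser list of replicate 1 that overlapped replicate 2, the summits lay a median of 13 bp apart and 90.6% lay within 50 bp. At the members, the shift was over 50 bp at Csf2rb2 +48.0 kb (116 bp), Csf3r −19.6 kb (111 bp), Flt3 +61.3 kb (94 bp) and Csf2ra +0.0 kb (53 bp). Among the marker lists not described above, 3 of 12 stem and progenitor cell genes were open in both replicates, namely Meis1 (12.2 and 8.99), Sox4 (9.34 and 11.2) and Hlf (6.10 and 8.05), while Cd34 had no promoter region. Of 10 dendritic cell genes 3 were open, Tcf4 (11.8 and 16.6), H2-Ab1 (11.8 and 11.7) and Itgax (11.96 and 9.35). Of 10 mast cell and basophil genes only the histidine decarboxylase gene Hdc (9.79 and 9.92) was open, and Cpa3, Cma1 and Fcer1a were not. Of 5 eosinophil genes 0 were open in both, and Ccr3, Epx and Prg2 had no promoter region in either. The start site of Pan3, which lies 29.7 kb from that of Flt3, had promoter values of 5.66 and 10.04.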
